A study of Arabidopsis thaliana with 9 samples.

Results

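The protein genes of the large (60S) subunit of the cytosolic ribosome were examined in dark-grown seedlings of 3 lines of Arabidopsis thaliana. The list held 60 genes, given as locus codes, that encode 23 proteins. A gene was used where a probe set of the array named it and no other gene, and where several did, the probe set with the highest mean signal over the 9 arrays was taken. This left 37 of the 60 genes, each with 1 such probe set, among the 13286 genes named on the array. The seedlings were wild type Col-0, the line L17, which the labels call a phyA' line, and sps1, with 3 arrays for each line. All 3 lines have the Col-0 background, were germinated on plates and harvested as whole seedlings after 10 days in the dark, and had no further treatment. Which mutation or transgene sets L17 and sps1 apart from Col-0 is not stated in the labels, nor whether the arrays of a line came from separate batches of plants. A p-value here therefore reflects spread among these arrays alone, which may be technical.

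As background, a plant ribosome joins a small (40S) subunit, which reads the messenger RNA, to a 60S subunit, which forms the peptide bonds and through whose tunnel the new protein leaves. A 60S protein is typically encoded in Arabidopsis by a small family of related genes (paralogs), several of which are usually transcribed at once. Ribosomal protein genes as a class are known for high expression in growing tissue, and their transcripts usually move together.

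Protein names below follow the standard naming of Arabidopsis cytosolic ribosomal proteins. The annotation supplied with the array names these genes by locus code, other than PGY1 (AT2G27530). Of the 23 proteins, 14 had at least 2 measured genes, 3 had 1 (RPL6, RPL8 and RPL9) and 6 had none. The 6 without a measured gene were RPL3, RPL5, RPL10, RPL11, RPL23 and RPL24. The 23 genes not measured here were AT1G43170, AT1G61580, AT3G25520, AT5G39740, AT1G74060, AT1G74050, AT2G18020, AT4G36130, AT1G33120, AT1G33140, AT1G14320, AT1G26910, AT1G66580, AT2G42740, AT3G58700, AT4G18730, AT5G45775, AT3G49010, AT3G05590, AT1G02780, AT2G33370, AT2G36620 and AT3G53020. Of these, 4 shared 2 probe sets that name a pair of genes each, described near the end and not counted among the 37.

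A signal is the brightness of a probe set scaled to a common mean, and levels of different genes' probe sets are not compared here as amounts of RNA. Mean signals of the 37 genes had a lowest value of 13.5 and a median of 2957. The mean signal reached 1000 for 27 of them, against 16.1% of all 22746 probe sets tested. Among the brightest were AT1G67430 (RPL17), AT4G27090 (RPL14), AT3G24830 (RPL13a), AT4G16720 (RPL15) and AT5G27850 (RPL18). Only 3 genes lay under 100: AT2G47570 (RPL18), AT3G48960 (RPL13) and AT3G51190 (RPL8). The signals of AT2G47570 were 2.24, 19.2 and 27.4 on the wild type arrays, 6.7, 22.9 and 8.52 on the L17 arrays and 27.6, 3.23 and 4.01 on the sps1 arrays. Those of AT3G48960 were 8.85, 10.6 and 34.8 on the wild type arrays, 23.4, 26.3 and 32.3 on the L17 arrays and 33.7, 4.04 and 2.89 on the sps1 arrays. The 3 lines overlapped for both genes, and the arrays of 1 line differed several-fold, so no difference between lines was detectable for them.

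The arrays were even in overall brightness, with a trimmed mean signal of 500.0 on each, and 16.5% to 21.3% of probe sets lay under 16. Over all probe sets, wild type replicates 1 and 2 correlated at r = 0.986 with each other and at 0.954 with wild type replicate 3, which stood apart. With the L17 and sps1 arrays, wild type replicate 1 correlated at 0.9545 to 0.965 and replicate 2 at 0.9532 to 0.9622. These values are about as high as theirs with wild type replicate 3, which correlated at 0.9212 to 0.9302 with the other lines. The ratio of 3' to 5' ubiquitin control signal, a measure of RNA completeness, was 1.85 ± 0.0915 (SD, n = 3) for wild type, 2.32 ± 0.103 for L17 and 2.49 ± 0.066 for sps1, with no overlap between wild type and the other lines. The same ratio of GAPDH was 1.42 ± 0.112, 1.58 ± 0.234 and 1.70 ± 0.167, and that of actin 2.65 ± 0.404, 2.68 ± 0.342 and 2.70 ± 0.105, in the same order of lines, and wild type overlapped L17 for both controls and sps1 for actin but not GAPDH. Of 12 listed seed genes, 1 was measured, the oleosin gene AT3G01570, at 1068, 177 and 153 on the wild type arrays, 93.6, 273 and 42.6 on the L17 arrays and 70.2, 240.4 and 209.6 on the sps1 arrays; it was not called in any comparison. Of 7 listed root genes, 1 was measured, EXPA7 (AT1G12560), at 58.6, 4.55 and 38.6 on the wild type arrays, 3.48, 17.1 and 5.47 on the L17 arrays and 3.96, 3.51 and 2.28 on the sps1 arrays. Its sps1 arrays lay below all wild type arrays and L17 overlapped wild type, with log2 fold changes of -0.86 in L17 (limma, adjusted p = 0.246) and -1.19 in sps1 (adjusted p = 0.102), at signals mostly near or under the pseudocount of 16. None of the 9 dividing-cell, 9 light-grown-leaf or 1 dark-grown-seedling markers was measured, so the labelled tissue could not be checked against them.

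More 60S genes were higher than lower in L17, by modest amounts. Of the 37 genes, 5 rose and 2 fell in L17 against wild type (limma, adjusted p under 0.05), which is 18.9% of them, while 11.4% of all probe sets were called, 5.32% higher and 6.12% lower. The genes that rose encode RPL7, RPL12, RPL13a, RPL18 and RPL22, and those that fell encode RPL13 and RPL13a. The median log2 fold change of the 37 genes was 0.29, against 0.01 for all probe sets, and 28 estimates were positive (75.7%, against 50.8%). Estimates ran from -0.9996 to 0.70. The 3 L17 arrays did not overlap the 3 wild type arrays for 21 genes, or 56.8%, against 31.2% of all probe sets, and 17 genes had an unadjusted p under 0.05, against 25.6%. Among genes with a mean signal of at least 1000, 5 of 27 were called (18.5%), against 15.4% of probe sets that bright, whose median was 0.06.

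The count for L17 depended on single arrays. It was 0 without L17 replicate 2 or 3 (limma, with 11 and 10 genes at an unadjusted p under 0.05), 1 without wild type replicate 1 or 2, 3 without L17 replicate 1 and 4 without sps1 replicate 2 or 3. Calls over all 22746 probe sets fell as well, from 2601 to 1437 without L17 replicate 2 and 1628 without L17 replicate 3. Without wild type replicate 1 and 2 they were 2211 and 1795. Without L17 replicate 1 they were 1565, and without sps1 replicate 2 and 3 they were 2159 and 2128. In bulk seedlings, fewer cells of a type and less RNA per cell cannot be told apart.

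In sps1, too, more 60S genes were higher than lower. Against wild type, 7 genes rose and 2 fell (limma, adjusted p under 0.05), which is 24.3% of the 37, while 14.6% of all probe sets were called, 6.68% higher and 7.94% lower. Among the genes that rose were those of RPL4, RPL7 (2 genes), RPL12, RPL13a and RPL18, and those that fell encode RPL8 and RPL13. The median log2 fold change was 0.31, against -0.01 for all probe sets, and 26 estimates were positive (70.3%, against 49.0%). Estimates ran from -0.84 to 0.75. The sps1 and wild type arrays did not overlap for 23 genes, or 62.2%, against 33.4%, and 20 genes had an unadjusted p under 0.05, against 28.4%. Among genes with a mean signal of at least 1000, 7 of 27 were called (25.9%), against 19.9% of probe sets that bright, whose median was 0.09. The count was 4 without sps1 replicate 2 or 3, and 5 without sps1 replicate 1 or L17 replicate 1. Calls over all probe sets fell as well, from 3325 to 2093 and 2087 without sps1 replicate 2 and 3. Without sps1 replicate 1 and L17 replicate 1 they were 2272 and 2809.

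When only probe sets with a mean signal of at least 1000 were fitted, an alternative chosen after seeing the data, 9 of 27 genes were called in L17 (33.3%, against 30.1% of the bright probe sets) and 15 of 27 in sps1 (55.6%, against 36.0%). Both comparisons share the wild type arrays. By array, the median of the 37 genes relative to the wild type mean was 0.09, 0.08 and -0.14 on the wild type arrays, 0.20, 0.32 and 0.30 on those of L17, and 0.31, 0.35 and 0.29 on those of sps1. All 6 L17 and sps1 arrays lay above the 3 wild type arrays. Wild type replicate 3 was the lowest array of its line for 29 of the 37 genes, against 37.9% of all probe sets, and without it the medians were 0.20 in L17 and 0.22 in sps1. The counts without it, also past limma's threshold, were 6 genes in L17 (3 higher and 3 lower) and 7 in sps1 (5 higher and 2 lower). Of all 22746 probe sets, 2596 were called in L17 and 3406 in sps1 without it, against 2601 and 3325 with all arrays. The ubiquitin ratio differed between lines in the same order as the medians of the 37 genes, and its part in the result, like that of the seed and root genes, was not tested.

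**Figure D1:**
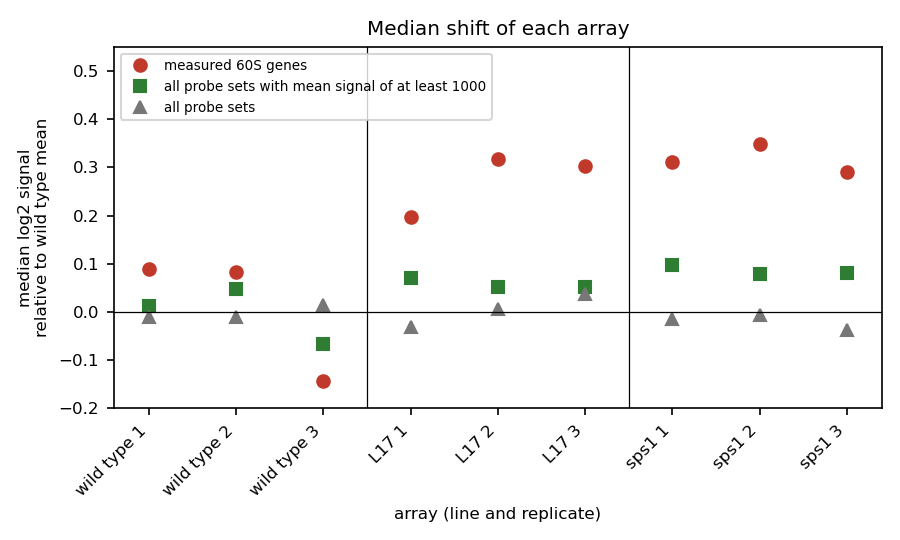
Median log2 signal relative to the wild type mean (vertical axis) on each of the 9 arrays (horizontal axis), for the 37 measured 60S genes (circles), for probe sets with a mean signal of at least 1000 (squares) and for all probe sets (triangles). The circles lie between -0.14 and 0.09 on the wild type arrays and between 0.20 and 0.35 on the others.

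**Figure D2:**
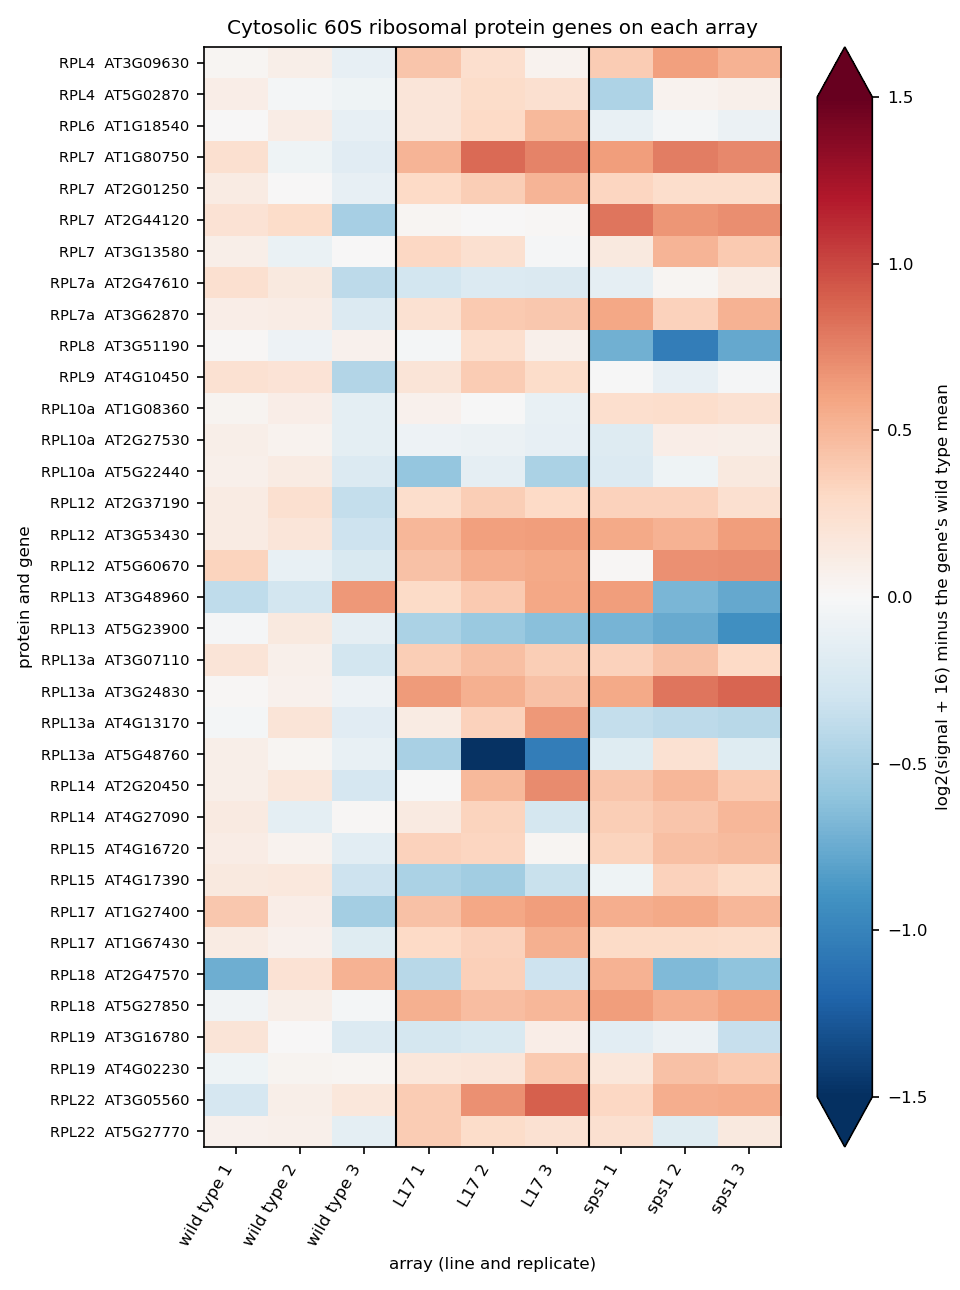
Log2 signal of 35 measured 60S genes (rows, grouped by protein) on each of the 9 arrays (columns, 3 for each line), relative to the gene's wild type mean, as a colour scale of log2(signal + 16). The rows of AT5G23900 (RPL13) and AT5G48760 (RPL13a) run against most others in L17.

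RPL4 and RPL17 line the narrow part of the exit tunnel. AT3G09630, an RPL4 gene on chromosome 3, had signals of 3761, 3893 and 3378 on the wild type arrays, 4884, 4366 and 3809 on the L17 arrays and 4778, 5644 and 5281 on the sps1 arrays. All sps1 arrays were above all wild type arrays, while L17 replicate 3 lay within the wild type range. Its log2 fold change was 0.51 ± 0.14 (SE, adjusted p = 0.0458) in sps1, which missed the threshold without L17 replicate 1 or 2, any sps1 array or any wild type array (adjusted p = 0.0539 to 0.141), and 0.24 (adjusted p = 0.341) in L17. The other RPL4 gene, AT5G02870, had 3858, 3529 and 3442 on the wild type arrays, 4079.6, 4369 and 4265 on the L17 arrays and 2605, 3745 and 3790.5 on the sps1 arrays. In sps1 it overlapped wild type, with 1 low array, and its log2 fold changes were 0.23 in L17 and -0.11 in sps1. Neither RPL17 gene passed the test: AT1G27400 had estimates of 0.55 in L17 and 0.54 in sps1, and AT1G67430 had 0.39 (adjusted p = 0.0984) and 0.28.

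RPL8 lies close to the site of peptide bond formation. Its measured gene, AT3G51190 on chromosome 3, was dim, at 38.8, 35.5 and 40.5 on the wild type arrays, 37.2, 48.5 and 41.2 on the L17 arrays and 17, 10.5 and 15.7 on the sps1 arrays. The 3 sps1 arrays were below all 6 others, and L17 overlapped wild type. The mean signal was 38.3 ± 2.57 (SD, n = 3) for wild type, 42.3 ± 5.73 for L17 and 14.4 ± 3.45 for sps1. In log2(signal + 16), which understates changes of dim probe sets, it fell by 0.84 ± 0.14 in sps1 against wild type (limma, SE, adjusted p = 0.00493), and the call held with each array left out. With an intensity trend and robust variances the adjusted p was 0.0504. The sps1 signals were at or near the pseudocount of 16, and the estimate ran from -1.37 to -0.38 over the alternatives.

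RPL12 sits at the base of the stalk where translation factors bind. Of its 3 genes, AT3G53430 had signals of 3684, 3856 and 2728 on the wild type arrays, 4796, 5205 and 5221 on the L17 arrays and 5009, 4857 and 5248 on the sps1 arrays. Every L17 and sps1 array was above every wild type array, and wild type replicate 3 was the lowest. It rose by 0.58 ± 0.15 (SE, adjusted p = 0.0434) in L17 and 0.57 ± 0.15 (SE, adjusted p = 0.0395) in sps1 (limma). The L17 call missed the threshold without any 1 of the 9 arrays (adjusted p = 0.0504 to 0.129), and the sps1 call missed the threshold without any L17 array, any sps1 array or wild type replicate 1 (adjusted p = 0.0556 to 0.118). The other 2 genes had positive estimates that did not pass: 0.31 and 0.31 for AT2G37190, and 0.52 and 0.46 for AT5G60670, in L17 and sps1. RPL10a forms the mobile stalk on the other side, beside the exit site of transfer RNA. None of its 3 genes passed: AT1G08360 had -0.02 in L17 and 0.24 in sps1, PGY1, known for a role in leaf patterning, -0.10 and 0.00, and AT5G22440 -0.40 and -0.04.

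RPL7, which binds the RNA of the large subunit, had 4 measured genes, of which 2 were called. AT1G80750, on chromosome 1, had signals of 416, 334 and 309 on the wild type arrays, 507, 642 and 596 on the L17 arrays and 550.3, 606 and 589 on the sps1 arrays. Wild type was lowest throughout, with no overlap, and L17 and sps1 overlapped each other. It rose by 0.70 ± 0.15 (SE, adjusted p = 0.0208) in L17 and by 0.70 ± 0.15 (SE, adjusted p = 0.0162) in sps1 (limma). The L17 call missed the threshold without L17 replicate 2 or 3 or wild type replicate 2 (adjusted p = 0.0655 to 0.0807). The sps1 call missed the threshold without sps1 replicate 2 or 3 or wild type replicate 2 (adjusted p = 0.0526 to 0.0594). AT2G44120 was highest in sps1, at 2080.4, 2181 and 1269 on the wild type arrays, 1837, 1795 and 1814 on the L17 arrays and 3144, 2842 and 2920.0 on the sps1 arrays. Its L17 arrays lay inside the wide wild type range, set by a low replicate 3. It rose by 0.72 ± 0.20 (SE, adjusted p = 0.0446) in sps1 and had an estimate of 0.02 in L17, while sps1 against L17 gave 0.70 (adjusted p = 0.077). The sps1 call missed the threshold without any L17 array, any sps1 array or wild type replicate 1 (adjusted p = 0.0509 to 0.122), and the estimate without wild type replicate 3 was 0.47. AT2G01250 and AT3G13580 had estimates of 0.39 and 0.18 in L17 and 0.28 and 0.35 in sps1, none past the test.

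The RPL13 gene AT5G23900 was lower in both lines. This gene, on chromosome 5, had signals of 2719, 3035 and 2499 on the wild type arrays, 1967, 1859 and 1764 on the L17 arrays and 1689.8, 1624 and 1446 on the sps1 arrays. The 3 lines did not overlap, wild type being highest and sps1 lowest. Mean signals were 2751 ± 269 (SD, n = 3), 1863 ± 101 and 1586 ± 126 in that order of lines, wild type, L17 and sps1. It fell by 0.56 ± 0.13 in L17 (limma, SE, adjusted p = 0.0284) and by 0.79 ± 0.13 in sps1 (adjusted p = 0.00508). The sps1 call held with each array left out, while the L17 call missed the threshold without any L17 array or wild type replicate 1 or 2 (adjusted p = 0.0642 to 0.0904). Between sps1 and L17 the difference was -0.23 (adjusted p = 0.383).

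RPL13a, for which human work describes a further role in silencing some messenger RNAs outside the ribosome, had 4 measured genes, of which 2 were called against wild type. AT3G24830 had signals of 3839, 3975 and 3600.0 on the wild type arrays, 5948, 5518 and 5179.7 on the L17 arrays and 5658, 6631 and 6958 on the sps1 arrays. Its L17 and sps1 arrays were all above wild type. It rose by 0.54 ± 0.13 (SE, adjusted p = 0.0316) in L17 and 0.75 ± 0.13 (SE, adjusted p = 0.00649) in sps1 (limma). The sps1 call held with each array left out, and the L17 call missed the threshold without any L17 array, sps1 replicate 2 or any wild type array (adjusted p = 0.0526 to 0.106). AT5G48760 had signals of 911, 878 and 793 on the wild type arrays, 608, 298 and 412 on the L17 arrays and 754, 1011 and 755 on the sps1 arrays. Its L17 arrays were the lowest, with replicate 2 the dimmest, and sps1 overlapped wild type. It fell by 1.00 ± 0.24 in L17 (limma, SE, adjusted p = 0.0316), and had an estimate of -0.05 in sps1. This call missed the threshold without L17 replicate 2 or 3, sps1 replicate 3 or wild type replicate 1 or 2 (adjusted p = 0.0503 to 0.0916); the estimate without L17 replicate 2 was -0.76.

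AT4G13170, also RPL13a, had signals of 934, 1087 and 844 on the wild type arrays, 1035, 1209 and 1498 on the L17 arrays and 738, 719 and 706 on the sps1 arrays. Its sps1 arrays were below all others. Neither comparison with wild type passed, with 0.37 in L17 (adjusted p = 0.2) and -0.39 in sps1 (adjusted p = 0.159). AT3G07110 had signals of 2673, 2470.3 and 1933 on the wild type arrays, 3014, 3201 and 3032 on the L17 arrays and 2973, 3166 and 2870.1 on the sps1 arrays. Both L17 and sps1 lay above wild type with no overlap, at 0.40 (adjusted p = 0.127) and 0.36 (adjusted p = 0.145), short of the threshold.

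**Figure D3:**
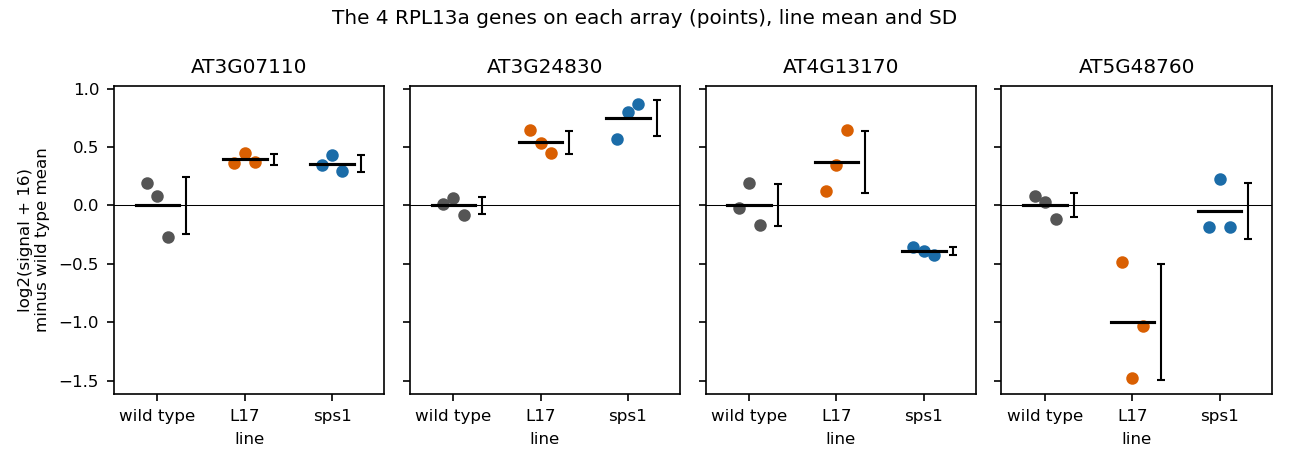
Log2(signal + 16) of the 4 RPL13a genes (panels) relative to each gene's wild type mean (vertical axis, log2 units) by line (horizontal axis), with 1 point for each array, a bar at the mean of each line's 3 arrays and a bracket for 1 SD on either side. AT3G24830 is lowest in wild type, AT5G48760 is lowest in L17 (signals of 298 to 608) and AT4G13170 is lowest in sps1 (706 to 738).

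RPL18, RPL15 and RPL22 are further RNA-binding proteins of the subunit. The RPL18 gene AT5G27850, on chromosome 5, had signals of 3648, 4000.4 and 3684 on the wild type arrays, 5459.6, 5199.6 and 5338 on the L17 arrays and 5818, 5525 and 5748 on the sps1 arrays. Wild type lay lowest, then L17, then sps1, with no overlap. It rose by 0.50 ± 0.11 (SE, adjusted p = 0.0237) in L17 and 0.59 ± 0.11 (SE, adjusted p = 0.00908) in sps1 (limma). The sps1 call held with each array left out, and the L17 call missed the threshold without any L17 array or wild type replicate 1 (adjusted p = 0.0628 to 0.0795).

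For RPL22, AT3G05560 had signals of 2517, 3176 and 3371 on the wild type arrays, 3905, 4833 and 5594 on the L17 arrays and 3724, 4369.5 and 4417 on the sps1 arrays. The L17 and sps1 arrays were all above wild type. It rose by 0.65 ± 0.18 (SE, adjusted p = 0.0492) in L17 (limma) and had 0.47 (adjusted p = 0.121) in sps1. The L17 call missed the threshold without L17 replicate 2 or 3, any sps1 array or wild type replicate 1 or 2 (adjusted p = 0.0636 to 0.145). Its paralog AT5G27770 had 0.29 and 0.07. For RPL15, AT4G16720 had 0.23 in L17 and 0.42 (adjusted p = 0.0806) in sps1. The other RPL15 gene, AT4G17390, had 3744, 3758 and 2715 on the wild type arrays, 2429, 2349 and 2659 on the L17 arrays and 3223, 4277 and 4121 on the sps1 arrays. Its L17 arrays were the lowest, at -0.44 (adjusted p = 0.154) against wild type, and sps1 overlapped wild type.

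Among genes with a probe set of their own, none of RPL6, RPL7a, RPL9, RPL14 or RPL19 passed in any comparison. RPL9 lies beside the factor-binding site, and RPL19 reaches over to the small subunit. AT1G18540 (RPL6) had estimates of 0.32 in L17 and -0.08 in sps1, and AT4G10450 (RPL9) of 0.29 and -0.05. The RPL7a gene AT3G62870 had signals of 3953, 3996 and 3207 on the wild type arrays, 4348, 4852 and 4886 on the L17 arrays and 5536, 4725 and 5304 on the sps1 arrays. All L17 and sps1 arrays exceeded wild type, at 0.34 and 0.48 (adjusted p = 0.0517 in sps1). Its paralog AT2G47610 had 3713, 3472 and 2390.4 on the wild type arrays, 2583, 2714 and 2691 on the L17 arrays and 2864, 3210.4 and 3403 on the sps1 arrays. That gene overlapped wild type in both lines, at -0.23 and 0.01. The RPL14 genes AT2G20450 and AT4G27090 had 0.40 and 0.07 in L17 and 0.44 and 0.42 in sps1. The RPL19 genes AT3G16780 and AT4G02230 had -0.13 and 0.25 in L17 and -0.20 and 0.33 in sps1.

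**Figure D4:**
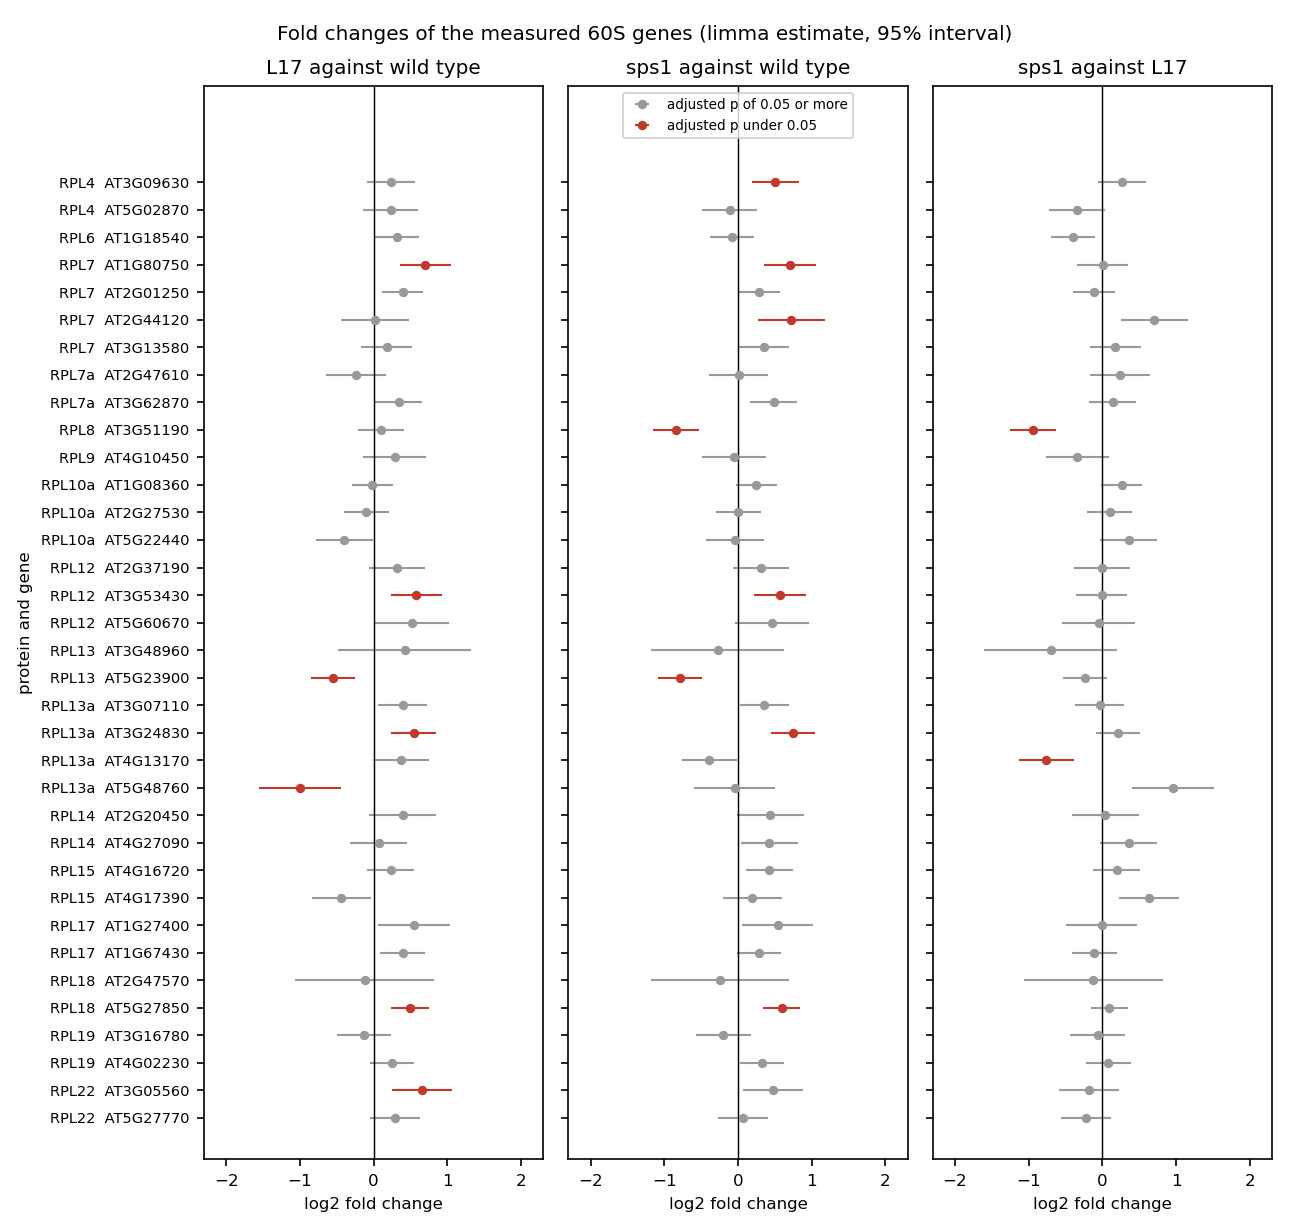
Log2 fold changes of 35 measured 60S genes (horizontal axis, log2 units, with 95% intervals from limma) in the 3 comparisons (panels), by protein and gene (vertical axis), with genes at an adjusted p under 0.05 in red. Red points number 7 in L17 against wild type, 8 in sps1 against wild type and 2 in sps1 against L17.

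Of the 37 genes, 12 were called in at least 1 comparison and 25 in none. Called in both L17 and sps1 against wild type were 5 genes, AT1G80750, AT3G53430, AT5G23900, AT3G24830 and AT5G27850. Those called in L17 but not sps1, AT5G48760 and AT3G05560, and in sps1 but not L17, among others AT3G09630, AT2G44120 and AT3G51190, differ in that respect only as far as sps1 against L17 shows. In that direct comparison 2 genes were called, both lower in sps1 (limma, 5.41% of the 37), while 6.86% of all probe sets were called, 3.14% higher and 3.72% lower. They were AT3G51190 (RPL8), at -0.94 ± 0.14 (SE, adjusted p = 0.00554), and AT4G13170 (RPL13a), at -0.76 ± 0.16 (SE, adjusted p = 0.028). The first call held with each array left out, and the second missed the threshold without L17 replicate 2 or 3 or any sps1 array (adjusted p = 0.0767 to 0.0926). AT5G48760 had the largest positive estimate, 0.95 (95% interval 0.40 to 1.51, adjusted p = 0.0527), short of the threshold. Of the others called in 1 line, the adjusted p was 0.648 for AT3G05560, 0.341 for AT3G09630 and 0.077 for AT2G44120.

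The median log2 difference of the 37 genes between sps1 and L17 was 0.01, against -0.02 for all probe sets, with estimates from -0.94 to 0.95. The arrays of both lines did not overlap for 16 genes, or 43.2%, against 30.7% of all probe sets, and 6 genes had an unadjusted p under 0.05, against 20.4%. Among genes with a mean signal of at least 1000, 0 of 27 were called by limma (against 9.72% of probe sets that bright), with 3 at an unadjusted p under 0.05. Fitting only the bright probe sets, the alternative chosen after seeing the data, called 3 of 27, against 21.9%. The count of 2 became 5 without wild type replicate 3, and 1 without L17 replicate 2 or 3 or any sps1 array. Over all probe sets, 1560 were called with all arrays. The calls over all probe sets without these arrays are not given here, so these changes are not read as particular to the 37 genes.

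Paralogs of one protein were compared through the log2 ratio of their signals on the same array, since a change of that ratio between lines means that their signals moved unequally. Whether a probe set also picks up RNA of a paralog was not tested, nor was the part of the differing ubiquitin ratio. There were 28 pairs within 14 proteins. Each was tested with an exact permutation F test over the 280 arrangements of the 9 arrays, whose smallest possible p is 0.00357, with p-values adjusted over all 28 pairs. An exact p under 0.05 was found for 14 pairs, and 3 had an adjusted p under 0.05. All 3 are RPL13a pairs with AT5G48760, each at the smallest p the design allows (exact permutation test, adjusted p = 0.0333). The log2 ratio of AT4G13170 over AT5G48760 was 0.14 ± 0.14 (SD, n = 3) on the wild type arrays, 1.51 ± 0.66 in L17 and -0.20 ± 0.24 in sps1, a change of 1.37 in L17 and -0.34 in sps1. The 3 lines did not overlap, with L17 the highest. For AT3G24830 over AT5G48760 the ratio changed by 1.54 and 0.79, and for AT3G07110 over AT5G48760 by 1.40 and 0.40, in L17 and sps1. These 3 pairs share AT5G48760 and so are not independent. With the smallest p adjusted over 28 pairs, no pair could pass alone, only where several pairs had very small p-values together. A protein with 2 measured genes has a single pair, which could not pass by its own change. That such a protein had no passing pair is therefore no evidence that its paralogs moved equally.

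A further 7 pairs had an adjusted p of 0.05, which is not under the threshold, with exact p-values of 0.0107 to 0.0179 (permutation test). Among them, the RPL13a ratio of AT3G24830 over AT4G13170 had changes of 0.17 in L17 and 1.14 in sps1, and the RPL7 ratio of AT2G01250 over AT2G44120 had 0.38 and -0.44. The RPL15 ratio of AT4G16720 over AT4G17390 had 0.67 and 0.23. The RPL7a ratio of AT2G47610 over AT3G62870 had -0.58 and -0.48, of like sign in both lines. The others were AT3G16780 over AT4G02230 (RPL19), at -0.38 and -0.53, AT1G80750 over AT2G01250 (RPL7), at 0.31 and 0.42, and AT1G08360 over AT2G27530 (RPL10a), at 0.08 and 0.24. The RPL4 ratio of AT3G09630 over AT5G02870 had 0.01 and 0.62 (exact permutation test, p = 0.0357, adjusted p = 0.0769). The count of 3 pairs was 0 without any 1 wild type or sps1 array or L17 replicate 2, where the smallest adjusted p was 0.05 to 0.111 and 10 to 14 pairs had an exact p under 0.05. It was 5 without L17 replicate 3. Since no pair can pass alone, these counts also depend on how many pairs had very small p-values together. Without wild type replicate 3, AT2G01250 over AT2G44120 had an exact p of 0.00357 and an adjusted p of 0.0857 (permutation test). Leaving out pairs with a mean signal under 100, chosen after seeing the data, gave 10 of 26.

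**Figure D5:**
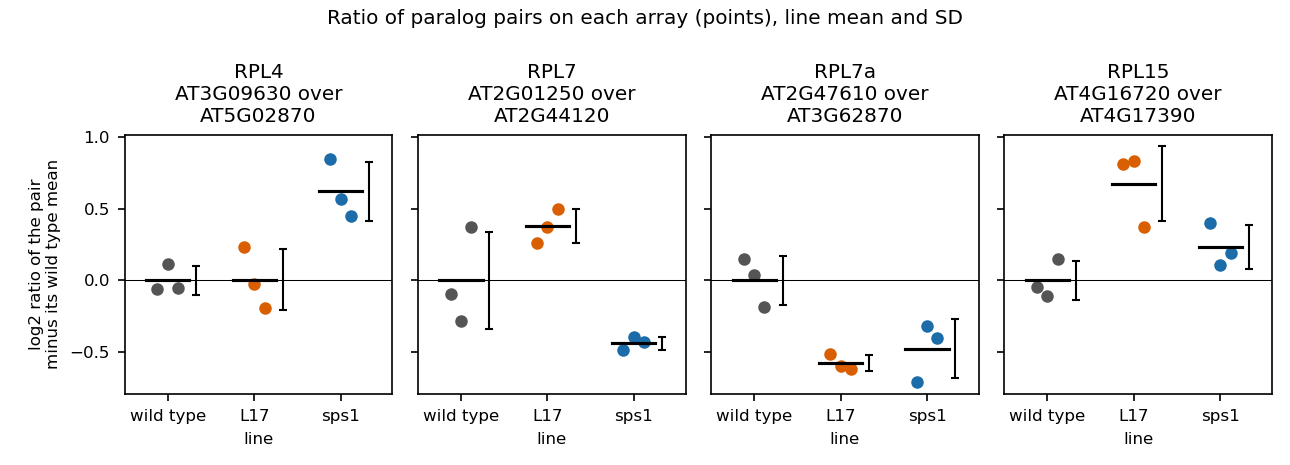
Log2 ratio of the signals of 4 paralog pairs of RPL4, RPL7, RPL7a and RPL15 (panels) on each array (points), relative to the pair's wild type mean (vertical axis, log2 units), by line (horizontal axis), with the line mean as a bar and 1 SD on either side as a bracket. The RPL4 ratio lies highest in sps1, 0.62 above wild type, and the RPL15 ratio lies highest in L17, 0.67 above wild type; none of these 4 pairs had an adjusted p under 0.05.

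The shared probe sets were read separately. The one naming the RPL6 genes AT1G74060 and AT1G74050 had signals of 3203, 3338 and 2924 on the wild type arrays, 3685, 3556 and 3550.1 on the L17 arrays and 5072, 4255 and 5011 on the sps1 arrays. Every sps1 array exceeded every L17 array, and every L17 array exceeded every wild type array. The log2 fold change was 0.59 ± 0.13 (SE, adjusted p = 0.015) in sps1 (limma) and 0.19 (adjusted p = 0.392) in L17. Which of these genes gives the signal cannot be told from it. The probe set naming the RPL9 genes AT1G33120 and AT1G33140 had -0.12 (adjusted p = 0.647) in L17 and 0.36 (adjusted p = 0.136) in sps1.

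Other ribosomal genes were set beside these 37. Of 70 other 60S genes 46 were measured, and of these 6 rose and 2 fell in L17 (17.4%, against 11.4% of all probe sets, with a median of 0.32), 5 rose and 1 fell in sps1 (13.0%, against 14.6%, median 0.21), and 0 were higher and 2 lower in sps1 against L17 (4.35%, against 6.86%). Among them AT3G28900 (RPL34) rose by 0.91 in L17 and 1.29 in sps1 on the log2 scale, AT5G02450 (RPL36) rose by 0.96 and 0.92, and AT3G49910 (RPL26) fell by 0.65 in L17. The largest L17 changes of this list in each direction were 1.06 for AT3G06680 and -0.89 for AT2G40010. The 2 genes lower in sps1 against L17 were AT1G15250 and AT2G39390, at -0.80 and -0.74. Of 91 small subunit genes 44 were measured, and of these 4 rose and 0 fell in L17 (9.09%, median 0.27, with 14 at an unadjusted p under 0.05), and 5 rose and 1 fell in sps1 (13.6%, median 0.32). Both shares were below those of all probe sets, but those higher were 9.09% in L17 (against 5.32%) and 11.4% in sps1 (against 6.68%). Estimates were positive for 42 of the 44 in L17 (95.5%, against 50.8%) and 34 in sps1 (77.3%, against 49.0%). In sps1, 21 had an unadjusted p under 0.05 (limma). Of 41 ribosome assembly factors 14 were measured, with 1, AT3G03920, higher in both lines (0.59 in L17 and 0.69 in sps1, or 7.14% in each), and medians of 0.13 and 0.08. Neither of the 2 measured elongation factor genes of 14 listed was called in any comparison (limma, with 0, 1 and 0 at an unadjusted p under 0.05 in L17, sps1 and sps1 against L17). Whether these lists differ from one another was not tested.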

How the data were processed

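RNA of whole seedlings was hybridised, 1 biotin-labelled sample to each of 9 Affymetrix arrays, per the labels. The deposited value for each probe set is a linear signal intensity that the authors made with GCOS, per the submitters' processing notes. The values give a 2% trimmed mean of 500.0 on every array. The number of arrays limits the precision. All columns were mapped to a labelled sample.

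Of 22810 probe sets, 64 controls were left out. The other 22746 include 13513 that name 1 gene and 503 that name several, and 8730 are unnamed here. Log2(signal + 16) was fitted with limma 3.58.1 in R 4.3.3 over all 9 arrays and 3 lines without a block, and Benjamini-Hochberg adjustment covered all 22746. The threshold was an adjusted p under 0.05. A fold change on this scale understates the change of dim probe sets. Paralog ratios were tested with an exact permutation F test, adjusted over all 28 pairs. Scripts were tested on simulated data.

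Members and lists were chosen with earlier results of these data known. Named with values are genes past the threshold in any comparison, the 6 with the highest and 3 with the lowest mean signal, genes without a probe set of their own and both genes of the 10 paralog pairs of smallest exact p; the others are given within their protein. Other settings tried were pseudocounts of 1 and 64, a minimum mean signal of 100, quantile normalization, median centring, trend and robust moderation, array weights, fits of only the lines compared, an adjusted p under 0.01, a replicate block and each array left out. Promoter and protein sequences were not used here. The genes of 1 protein count in the totals and are not reported here.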

Additional observations from a re-analysis of the deposited data

Results flagged for a closer look

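The direct comparison of sps1 with L17 differed for 2 of the 37 genes (limma, adjusted p under 0.05 over all probe sets). This is 5.41% of them, under the 6.86% of all probe sets called. AT3G51190 (RPL8) was -0.94 on the log2 scale in sps1 against L17, lower on 3 of 3 sps1 arrays, at signals close to the pseudocount. AT4G13170 (RPL13a) was -0.76, also lower on 3 of 3 sps1 arrays, and this call was lost when L17 replicate 2 or 3 or any sps1 array was left out (adjusted p = 0.0767 to 0.0926). With 3 arrays in each line, no test for a single outlying array was made.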

How the results depend on the processing

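No call of a named gene changed direction under any alternative run, and 5 of the 18 calls held with each array left out. The count for L17 against wild type (7) was 4 with a pseudocount of 1, 1 with a replicate block, 0 with only wild type and L17 fitted (11 at an unadjusted p under 0.05), 0 at an adjusted p under 0.01 and 0 to 6 with 1 array left out. Higher counts were 10 with trend and robust moderation, 9 with a pseudocount of 64 and 8 with array weights. Over all probe sets, these settings called 3470, 3395 and 3598, in that order, also more than the main fit. A minimum mean signal of 100 gave 9 of 34 genes, with 3240 of 12907 probe sets called. Calls over all 22746 probe sets (2601) ran from 1024 at an adjusted p under 0.01 to 3598 with array weights. The count for sps1 against wild type (9) was 15 with a minimum mean signal of 1000, 5 with the replicate block, 5 with only those lines fitted, 4 at an adjusted p under 0.01 and 4 to 7 with 1 array left out. With array weights, median centring, a pseudocount of 64 or trend and robust moderation it was 12. Over all probe sets, these settings called 4343, 3721, 4124 and 4238, in that order, also more than the main fit. A minimum mean signal of 100 gave 11 of 34 genes, with 3873 of 12907 probe sets called. Quantile normalization gave 7 and a pseudocount of 1 gave 6. Calls over all 22746 probe sets (3325) ran from 1474 at an adjusted p under 0.01 to 4343 with array weights. The count for sps1 against L17 (2) was 5 with array weights, 5 with a minimum mean signal of 100, 4 with median centring, 5 with a pseudocount of 64, 1 with the replicate block, 6 with trend and robust moderation, 4 with only those lines fitted, 1 at an adjusted p under 0.01 and 1 to 5 with 1 array left out. In the main fit of sps1 against L17, 1560 of all 22746 probe sets were called. Calls over all probe sets under the alternatives are not given here for this comparison. Its counts are thus not read as a result about the 37 genes. The median log2 fold change was 0.20 to 0.29 in L17 and 0.22 to 0.34 in sps1 with 1 array left out. With median centring it was 0.42 in sps1, where the median of all probe sets was 0.10 in place of -0.01. For sps1 against L17 it was 0.10 with a minimum mean signal of 1000, 0.10 with median centring and -0.05 to 0.08 with 1 array left out, below 0 without L17 replicate 1. The number of paralog pairs past the threshold (3) was 5 with quantile normalization, 10 with both mean signals at least 100 and 0 to 5 with 1 array left out. Since no pair can pass alone, this number also depends on how many pairs had very small p-values together. The cause of these changes was not tested. No pairing by replicate number was seen: none of the 9 same-numbered pairs of arrays had deviations correlated over 0.1 (r = -0.0795 to 0.0589). Whether same-numbered arrays shared a batch is not stated in the labels and cannot be told from this check. Using all probe sets of a gene changed nothing, since each of the 37 has 1. Signals near the pseudocount limit the 3 dimmest genes.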
